A study of Mus musculus with 15 samples.

Results

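The genes described here encode parts of the activin, TGF-β and BMP signalling pathways: the type I receptors Acvr1c and Tgfbr1, the type II receptors Acvr2a and Bmpr2, the signal transducer Smad2, the nuclear repressor Skil and the target gene Id2. ATAC-seq, an assay that marks open chromatin by where the Tn5 transposase can insert its adapters, was run on mouse pancreatic islets. All peaks annotated to these 7 gene symbols were taken from 4 tables of peaks, each of which compares 2 groups of islets. The 7 genes were chosen from values measured in these tables (group levels, changes and FDR), so their values are a description and not a test. They had peaks at 10 positions. The tables listed 7 of these among 7826 peaks for the genotypes before surgery and 10 among 13111 peaks for the genotypes after it. They listed 7 among 8070 peaks for the effect of surgery in control islets and 9 among 12767 peaks for its effect in knockout islets. Only the Bmpr2 promoter, the internal promoter of Acvr1c and a distal peak of Skil were missing from any table, and Bmpr2 was missing from both tables that test control islets before surgery.

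The islets came from 15 male mice aged 3 months. Controls and knockouts alike carried Arid1a Fl/Fl alleles together with MIP-rtTA, a transgene that expresses the doxycycline-responsive activator rtTA from an insulin promoter. The knockout mice (Arid1a βKO) carried TRE-Cre as well, so that Cre depends on that activator and deletion is limited to cells in which the insulin promoter is active. Doxycycline was given in the drinking water at 1 g/L over 2 weeks, per the labels' protocols. Before partial pancreatectomy (PPx, removal of part of the pancreas) there were 4 control and 3 βKO mice, and 6 days after PPx there were 4 control and 4 βKO mice, PPx having followed 1 week after doxycycline was withdrawn. Arid1a encodes a subunit of the SWI/SNF chromatin remodelling complex. At the targeted gene itself, a peak over exon 9 of 20 of Arid1a read 1.21 (control) and 5.49 (βKO) before PPx and 0.40 (control) and 4.04 (βKO) after it, authors' deposited tables, so the genotypes stood apart there. The labels do not say which exons are deleted. Islets hold several endocrine cell types along with vessels and stroma, so a lower level can mean fewer cells of a type or less open chromatin per cell, which cannot be told apart here.

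Ligands of this superfamily, such as activins, TGF-β and bone morphogenetic proteins (BMPs), bind a type II receptor kinase, which phosphorylates a type I receptor. The type I receptor then phosphorylates SMAD proteins. SMAD2 and SMAD3 carry activin and TGF-β signals and SMAD1, SMAD5 and SMAD9 carry BMP signals, in each case together with SMAD4. In the pancreas, activin and TGF-β signals are known for roles in endocrine development and in the control of β cell growth and hormone release.

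The printed sequences are the 250 bases before a RefSeq transcript start (GRCm38.p6, the build of the peak coordinates) for 4 of the genes. They are shown because each of these starts lies within a peak of the comparison of genotypes after PPx, and because the Acvr1c pair sets a CpG-rich start beside a CpG-poor one in the same gene. RefSeq windows were found for Acvr1c, Acvr2a, Tgfbr1, Bmpr2 and Id2, and not for Skil and Smad2. Capitals mark matches, on either strand, to CAGAC (the core that SMAD proteins bind, read as GTCTG on the other strand), GGCGCC (a palindrome found in BMP-responsive elements), GGGCGG (the GC box bound by Sp1 family factors, CCGCCC on the other strand) and CCAAT (bound by NF-Y, ATTGG on the other strand). All are written 5′ to 3′ on the strand of the gene.
Acvr1c promoter, chr2:58357759-58358008, minus strand: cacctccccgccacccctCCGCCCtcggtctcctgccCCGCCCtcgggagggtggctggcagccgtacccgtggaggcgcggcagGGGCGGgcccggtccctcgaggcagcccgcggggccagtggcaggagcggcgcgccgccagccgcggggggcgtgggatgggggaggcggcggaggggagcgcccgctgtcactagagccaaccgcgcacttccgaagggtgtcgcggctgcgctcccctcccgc
Acvr1c internal promoter, chr2:58324808-58325057, minus strand: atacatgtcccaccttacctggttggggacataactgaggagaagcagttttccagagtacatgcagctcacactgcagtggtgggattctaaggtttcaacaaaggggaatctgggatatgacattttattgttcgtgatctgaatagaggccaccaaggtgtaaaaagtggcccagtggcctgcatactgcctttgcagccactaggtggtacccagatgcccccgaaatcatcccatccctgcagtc
Tgfbr1 promoter, chr4:47352972-47353221, plus strand: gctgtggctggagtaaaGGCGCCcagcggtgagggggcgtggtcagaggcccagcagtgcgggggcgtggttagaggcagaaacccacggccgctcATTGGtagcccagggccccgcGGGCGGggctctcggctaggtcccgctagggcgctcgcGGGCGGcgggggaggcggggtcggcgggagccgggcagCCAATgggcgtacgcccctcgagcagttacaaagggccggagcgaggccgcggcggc
Acvr2a promoter, chr2:48813859-48814108, plus strand: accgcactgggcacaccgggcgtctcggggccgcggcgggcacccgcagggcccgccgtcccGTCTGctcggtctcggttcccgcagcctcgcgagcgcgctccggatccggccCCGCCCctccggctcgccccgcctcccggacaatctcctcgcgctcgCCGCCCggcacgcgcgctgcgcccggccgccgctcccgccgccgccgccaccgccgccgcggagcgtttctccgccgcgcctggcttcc
Id2 promoter, chr12:25096093-25096342, minus strand: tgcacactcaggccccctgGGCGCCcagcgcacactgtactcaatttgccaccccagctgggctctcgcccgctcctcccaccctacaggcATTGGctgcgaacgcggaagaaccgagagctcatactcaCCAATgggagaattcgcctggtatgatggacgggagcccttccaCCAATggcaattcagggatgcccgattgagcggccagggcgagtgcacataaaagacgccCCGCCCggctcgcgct

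The main Acvr1c window is 79.6% G and C with 32 CpG dinucleotides, against 49.6% and 2 CpG in the internal one. Tgfbr1 and Acvr2a resemble the former, with 29 and 49 CpG, and Id2 holds 18. The median of 6991 windows whose start lies in a listed peak of that table was 18 CpG, and that of all 32851 windows was 6. The SMAD core occurred once, in Acvr2a at 188 bases before the start, and it is in 42.2% of all windows and 39.5% of those whose start lies in a listed peak. GGCGCC occurred once each in Tgfbr1 (233 bases before the start) and Id2 (231 bases before it), and in 9.59% of all windows and 17.7% of those whose start lies in a listed peak. GC boxes were found in all 4 main promoters, 3 of them in Acvr1c, and in 32.7% of all windows and 64.6% of those in listed peaks. CCAAT was found 3 times in Id2 and 2 times in Tgfbr1, and in 33.8% of all windows and 42.6% of those in listed peaks. The internal Acvr1c window held none of the motifs, and no matches overlapped each other. These are matches of letters only and say nothing of binding.

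Acvr1c encodes ALK7, a type I receptor for activin B and Nodal that is found in islets and fat. It was the only gene of the 7 with 3 peaks in 1 table. Its promoter peak lies at chromosome 2, 58357602 to 58358202 on mm10, its internal promoter peak at 58324556 to 58325156, and a peak in intron 2 of 8 at 58299802 to 58300402. The intron 2 peak, 57794 bp into the gene, was the strongest of the 10 positions after PPx in both genotypes. The level given is the log2 concentration, the authors' group mean of normalised reads at the peak on a log2 scale, and the false discovery rate (FDR) is theirs. A peak is called in a library where it was found there, and called higher where the FDR is under 0.05 and the change is positive. In the authors' deposited tables the intron 2 peak read 4.86 (control) and 5.14 (βKO) before PPx, and 5.09 and 6.14 after PPx. It was called in all libraries of all 4 groups. In the tables of times it went from 4.69 to 5.14 in control islets and from 4.93 to 6.12 in βKO islets (authors' deposited tables). The promoter read 3.94 (control) and 4.28 (βKO) before PPx, and 3.45 and 4.71 after PPx (authors' deposited tables). The control mean was the lower one at both times, and after PPx the peak was called in 1 of 4 control but in 3 of 4 βKO libraries. Over time it went from 3.76 to 3.36 in control islets and from 4.01 to 4.70 in βKO islets, with FDR 0.999 and 0.176 (authors' deposited tables). Between genotypes after PPx, the promoter differed by 1.27 on the log2 scale, a 2.41-fold difference, and the intron 2 peak by 1.05, with an FDR of 0.0286 for each (authors' deposited table). The internal promoter read 2.95 (control) and 3.20 (βKO) after PPx, with FDR 1 (authors' deposited table), and appeared as a peak in 0 of 4 control libraries and 2 of 4 from βKO mice.

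Tgfbr1 encodes the type I receptor for TGF-β. Its promoter peak lies at chromosome 4, 47352797 to 47353397, and was called in every library of each group. In the authors' deposited tables it read 4.50 (control) and 4.97 (βKO) before PPx, and 4.12 and 5.20 after PPx. The βKO mean was the higher one at both times, and the FDR was 1 before and 0.0265 after PPx (authors' deposited tables). From before to after PPx, the Tgfbr1 promoter went from 4.32 to 4.17 in control and from 4.75 to 5.20 in βKO islets, at FDR values of 0.999 and 0.280 (authors' deposited tables). The βKO change of 0.45 was among the smaller ones, at percentile 16.2 of all peaks in that table.

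Acvr2a encodes a type II receptor for activins. The Acvr2a promoter, at chromosome 2, 48813786 to 48814386, was the strongest promoter of the 7 genes in both genotype comparisons except in control islets before PPx, where Id2 was higher (4.93 against 4.72). It read 4.72 (control) and 5.51 (βKO) before PPx, a log2 change of 0.79 at a DiffBind p-value of 0.0309 and an FDR of 1 (authors' deposited table). After PPx it read 4.95 and 5.86, FDR 0.0606 in the authors' deposited table, just outside the threshold of 0.05. Smad2, with an FDR of 0.0396, stood just inside it. The Acvr2a change before PPx was at percentile 98.3 of its table. Over time it went from 4.69 to 5.07 in control islets and from 5.27 to 5.84 in βKO islets, with FDR 0.999 and 0.257 (authors' deposited tables), so no comparison passed the threshold at this gene.

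Bmpr2 encodes the type II receptor for BMPs. Its peak at chromosome 1, 59763147 to 59763747, is annotated as a promoter by the authors but ends 532 bp upstream of the RefSeq start, so the RefSeq window is not printed. It was weak. In the authors' deposited tables it read 2.47 (control) and 3.92 (βKO) after PPx, and 2.16 in βKO islets before PPx. It was called in 2 of 4 βKO libraries after PPx and in 0 libraries of the control group after PPx or the βKO group before it. The rise in βKO islets after PPx was 1.77 on the log2 scale, a 3.41-fold difference, with FDR 0.0387 (authors' deposited table). Between genotypes after PPx, the difference was 1.45 at a DiffBind p-value of 0.00108, yet the FDR was 1 (authors' deposited table). Of 349 peaks of that table with p between 0.0005 and 0.002, 29 had an FDR of 1 and 320 an FDR under 0.05, and their median log2 concentrations were 3.28 and 4.63. With a Benjamini-Hochberg adjustment over all listed peaks, Bmpr2 had an adjusted p of 0.0432.

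Smad2 encodes the transducer of activin and TGF-β signals. Its promoter peak at chromosome 18, 76241213 to 76241813, read 3.92 (control) and 4.96 (βKO) after PPx (authors' deposited table). Before PPx, in a window shifted further into the gene, it read 3.52 and 4.07 (authors' deposited table). In control islets Smad2 was called in 1 of 4 libraries before and in 3 of 4 after PPx, while in βKO islets it was called in all libraries at both times. Over time the Smad2 promoter went from 3.35 to 3.80 in control islets and from 4.00 to 4.96 in βKO islets, with FDR 0.999 and 0.0870 (authors' deposited tables). The log2 change between genotypes was 0.55 before PPx, at an FDR of 1, and 1.03 after it, at an FDR of 0.0396 (authors' deposited tables). With a Benjamini-Hochberg adjustment over all listed peaks, the latter had an adjusted p of 0.0551.

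Skil encodes SnoN, a repressor that binds SMAD complexes and whose gene is itself induced by TGF-β signals. The Skil promoter peak at chromosome 3, 31094470 to 31095070, read 4.11 (control) and 5.20 (βKO) after PPx, with FDR 0.0265 (authors' deposited table). Before PPx the order was the other way, 4.37 (control) and 4.22 (βKO) in the authors' deposited table, at a DiffBind p-value of 0.690. In control islets the promoter read 4.35 before and 3.89 after PPx in the authors' deposited table, the lowest change among the 7 genes, at a DiffBind p-value of 0.161 and an FDR of 0.999. In βKO islets it read 4.04 before and 4.93 after PPx, with FDR 0.0703 (authors' deposited table). The windows of this peak differed by up to 350 bp between tables. βKO islets after PPx read 5.20 in 1 window and 4.93 in another that lay 268 bp away, whereas the other promoters gave βKO levels within 0.04 of each other in both tables. The distal Skil peak, at 31123229 to 31123829 beyond the far end of the gene, was the weakest of the 10 positions. It read 2.37 (control) and 2.59 (βKO) after PPx, with FDR 1 (authors' deposited table), and was called in 1 library of each group.

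Id2 encodes a helix-loop-helix protein without a DNA-binding domain that blocks other such factors, and is a known target of BMP signals. The Id2 promoter peak at chromosome 12, 25095882 to 25096482, read 4.93 (control) and 4.72 (βKO) before PPx, and 4.65 and 5.61 after PPx (authors' deposited tables). As at Skil, βKO islets had the lower mean before and the higher mean after PPx. The Id2 difference before PPx, -0.21, had a DiffBind p-value of 0.527 (authors' deposited table), so this order was not shown to differ from none. The genotype difference after PPx had an FDR of 0.0396 (authors' deposited table), and an adjusted p of 0.0548 with a Benjamini-Hochberg adjustment over all listed peaks. Within βKO islets the Id2 promoter rose by 1.12, from 4.49 before to 5.61 after PPx, at an FDR of 0.0410, and within control islets it read 4.75 before and 4.70 after PPx, a difference of -0.05, at a DiffBind p-value of 0.876 and an FDR of 0.999 (authors' deposited tables).

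**Figure D1:**
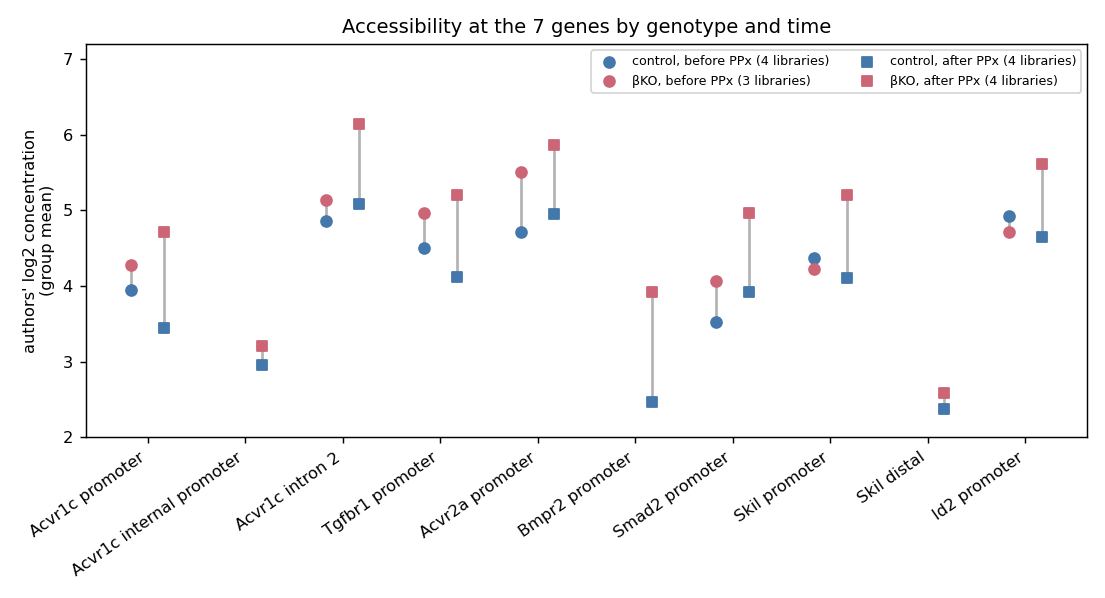
Authors' mean log2 concentration (vertical axis) at each of the 10 positions in control and βKO islets before (circles) and after PPx (squares), from the 2 genotype comparisons. After PPx the βKO mean is the higher one at all 10, while before PPx it is the lower one at the Skil and Id2 promoters.

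**Figure D2:**
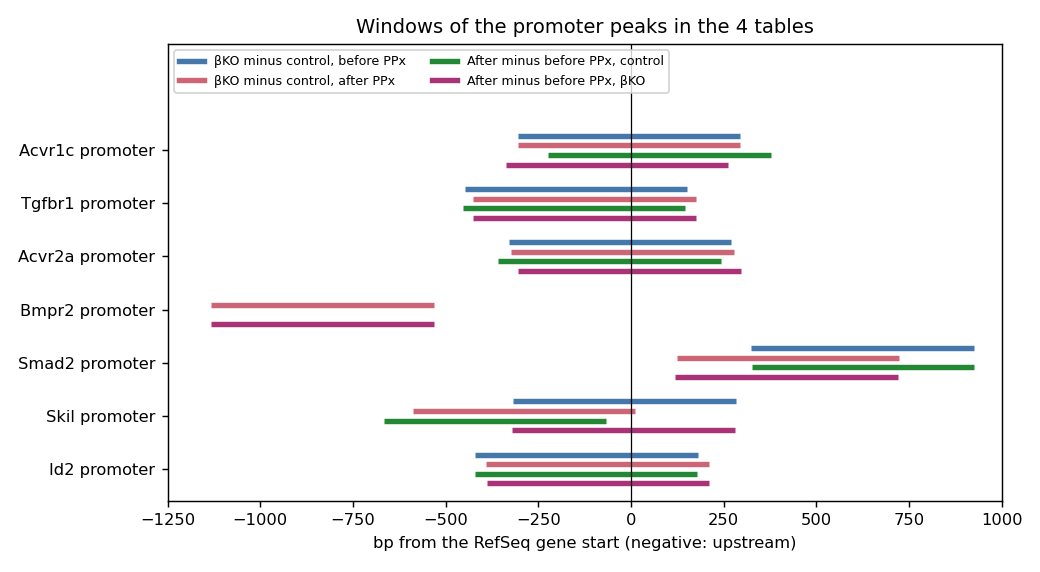
Windows of 601 bp that each table used for the promoter peaks, as distance in bp from the RefSeq gene start. The Bmpr2 windows end 532 bp upstream of the start, and those of Skil differ by up to 350 bp between tables.

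Levels of 1 group were not on 1 scale between tables. Over all shared peaks, βKO islets before PPx read a median of 0.23 higher in the genotype table than in the table of times, and control islets before PPx 0.18 higher. After PPx the same medians were -0.05 for control and 0.00 for βKO islets. The steps at the Tgfbr1 promoter were 0.22, 0.18, -0.05 and 0.00 in that order. Separately, a general shift of a table moves every peak in it, so changes are also given relative to the median change of all its peaks. This median was 0.00 between genotypes before PPx, 0.61 after PPx, 0.16 over time in control and 0.83 over time in βKO islets. Each value relative to the median has a standard error (SE) derived from the deposited change and p-value. Values per library were not analysed here, and the spread between mice enters only through those p-values.

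Between the genotypes before PPx, none of the 7 member peaks passed the authors' FDR of 0.05, and 0.0128% of all peaks were called higher. At an unadjusted p under 0.05, 1 of 7 was higher, at Acvr2a, against 0.843% of all peaks, in the table deposited from DiffBind per the submitters' processing notes. Relative to the median, Acvr2a was higher by 0.79 (SE 0.37), Smad2 by 0.55 (SE 0.49), Tgfbr1 by 0.48 (SE 0.36), and the Acvr1c promoter by 0.33 (SE 0.42). Skil stood at -0.15 (SE 0.41) and Id2 at -0.21 (SE 0.36). In all, 5 of 7 peaks lay above the median, as did 48.9% of all peaks. Acvr2a alone had a 95% interval that did not span 0, from 0.07 to 1.51. Its values in this comparison were known when the genes were chosen. Relative to the median, 0.0128% of peaks passed with adjustment over the table, and none of the 7 did.

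After PPx, all 10 member peaks had a higher mean in βKO than in control islets, as did 90.3% of all peaks, and 6 at 5 genes (Acvr1c, Tgfbr1, Smad2, Skil and Id2) were called higher, where 9.88% of all peaks and 14.3% of promoter peaks were. With a Benjamini-Hochberg adjustment over all listed peaks, 5 were called: Smad2 and Id2 were not, and Bmpr2 was. The share of all peaks that pass this adjustment was not counted, and the 9.88% is for the authors' FDR. Bmpr2 and the internal Acvr1c promoter were found in 0 of 4 control and 2 of 4 βKO libraries. Both are thus listed through the group in which they are high, and their values are not counted as support. Every listed peak was called in at least 2 libraries, and the main Acvr1c promoter was found in 1 of 4 control and 3 of 4 βKO libraries. Its listing thus also rests on the group in which it is high, and its call is not counted as support. The median peak of this table changed by 0.61. Against it, the called peaks stood between 0.35 at Id2 and 0.66 at the Acvr1c promoter. Bmpr2 stood highest at 0.84 (SE 0.44), with a 95% interval from -0.03 to 1.71. The distal Skil peak and the internal Acvr1c promoter, the 2 positions of lowest mean concentration (2.48 and 3.08), stood below the median at -0.39 and -0.35. In all, 8 of 10 lay above the median, against 49.7% of all peaks and 62.3% of promoter peaks, and every 95% interval spanned 0. Relative to the median 0.397% of peaks passed with adjustment over the table, and none of the 10 did. These values were among those from which the genes were chosen, and nothing is read from the counts.

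In control islets from before to after PPx, none of the 7 peaks listed passed the FDR of 0.05, and 0% of all peaks were called higher. At an unadjusted p under 0.05 none was higher, against 2.43% of all peaks in the deposited DiffBind table. The Acvr1c intron 2 peak, Acvr2a and Smad2 had higher means after PPx, with log2 changes of 0.45, 0.38 and 0.45 and p-values from 0.197 to 0.289 (authors' deposited table). The promoters of Skil, Acvr1c, Tgfbr1 and Id2 had lower means after PPx, with log2 changes of -0.46, -0.40, -0.15 and -0.05 (authors' deposited table). With the median subtracted, Skil stood at -0.62 (95% interval -1.26 to 0.02) and the Acvr1c promoter at -0.56 (-1.32 to 0.20), at percentiles 2.53 and 3.54 of the table. In all, 3 of 7 stood above the median, against 49.7% of all peaks. Against the table median, 0.0124% of peaks passed with adjustment over the table and none of the 7 did.

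Over time in βKO islets, all 9 listed peaks had a higher mean after PPx, as did 97.1% of all peaks. Of these 3 were called higher (Bmpr2, the Acvr1c intron 2 peak and Id2), where 7.44% of all peaks were. Bmpr2 was found in 0 of 3 libraries before and 2 of 4 after PPx, so it is listed through the group in which it is high, and its call is not counted as support. With the median subtracted, Bmpr2 stood at 0.94 (95% interval -0.15 to 2.03), the Acvr1c intron 2 peak at 0.37 (-0.39 to 1.13) and Id2 at 0.29 (-0.42 to 1.00). Smad2 and Skil stood near the median, at 0.13 and 0.06. The promoters of Acvr1c, Acvr2a and Tgfbr1 stood at -0.14, -0.26 and -0.38. In all, 5 of 9 lay above the median, against 49.6% of all peaks, and 0% of peaks passed relative to it. This comparison shares its βKO libraries before and after PPx with the 2 genotype comparisons, so a high level before PPx raises a peak in one and lowers it in the other.

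**Figure D3:**
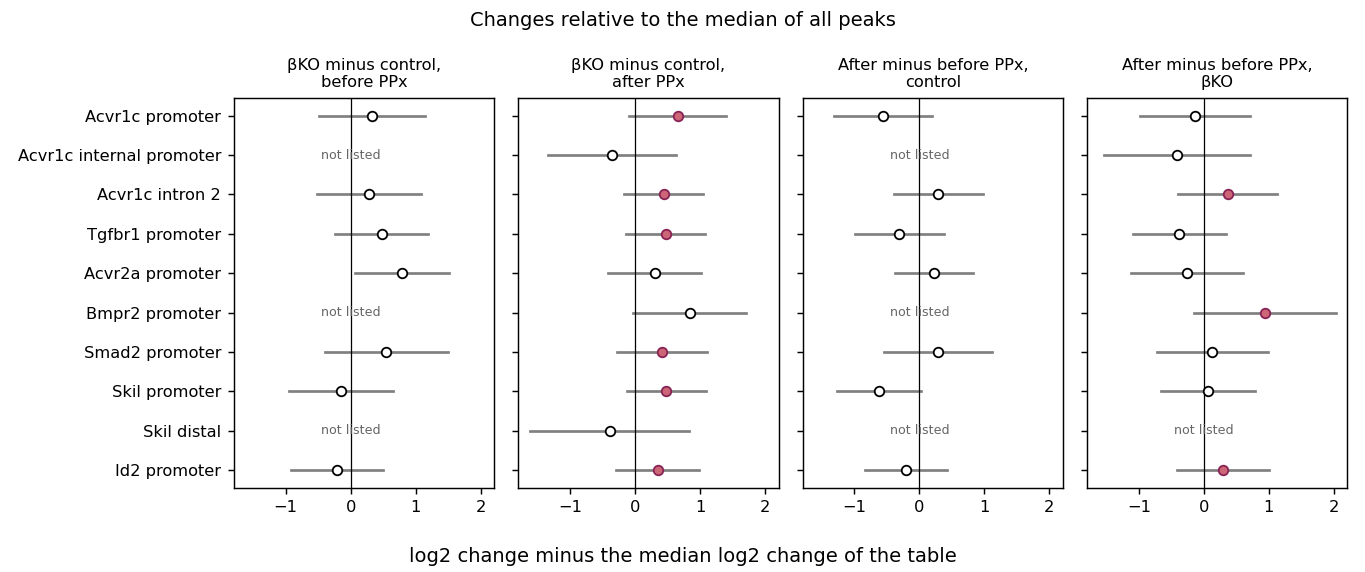
Log2 change minus the median log2 change of the table (horizontal axis) for each position in the 4 comparisons, with 95% intervals as lines. Filled points had an authors' FDR under 0.05, and the Acvr2a interval before PPx, from 0.07 to 1.51, is the only one that does not span 0.

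**Figure D4:**
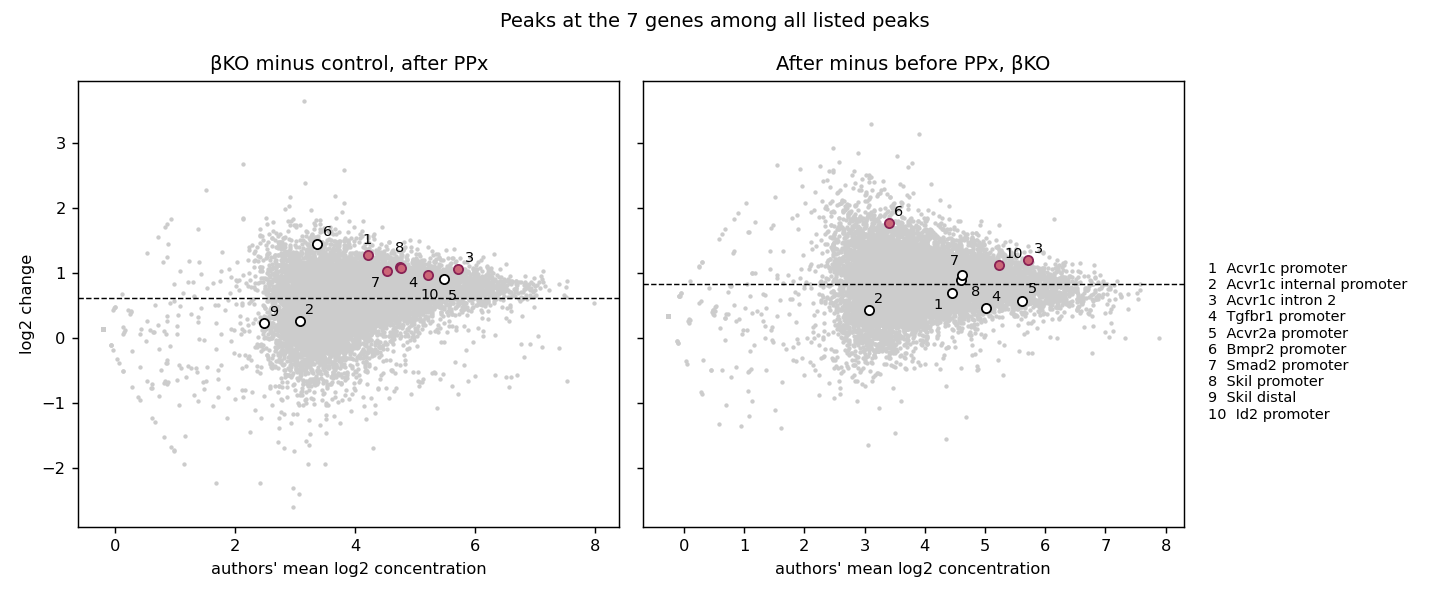
Log2 change against the authors' mean log2 concentration for all listed peaks (grey) up to a concentration of 8 and for the numbered positions at the 7 genes, with the table median as a dashed line. Bmpr2, at changes of 1.45 and 1.77, lies above the median among weak peaks in both panels, and filled points had an authors' FDR under 0.05.

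The genotype difference after PPx was compared with that before PPx, which come from separate mice. Over 7504 shared peaks, the difference between them had a median of 0.64 on the log2 scale. Relative to this, Skil stood at 0.60 (95% interval -0.41 to 1.61), Id2 at 0.53 (-0.42 to 1.48) and the Acvr1c promoter at 0.30 (-0.81 to 1.41). The Acvr1c intron 2 peak stood at 0.13, Tgfbr1 at -0.04 and Smad2 at -0.16. At Skil and Smad2 the windows of the 2 comparisons were shifted against each other, so their values do not describe a single site. For Skil, βKO islets after PPx read 5.20 and 4.93 in windows 268 bp apart. Acvr2a stood at -0.52 (-1.54 to 0.50), its genotype difference being 0.91 after and 0.79 before PPx. All 7 intervals spanned 0, so no member was shown to differ between the times by more than the median peak. Bmpr2 was not listed before PPx and has no such value.

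By the size of the genotype difference after PPx, relative to the median, the order was Bmpr2, Acvr1c promoter, Skil, Tgfbr1, Acvr1c intron 2, Smad2, Id2, Acvr2a, Acvr1c internal promoter and distal Skil. The first 8 ran from 0.84 to 0.30, with standard errors from 0.31 to 0.44, so neighbours among these 8 do not differ beyond their error. The internal Acvr1c promoter, at -0.35 (SE 0.50), comes next. Bmpr2 was found in 0 of 4 control and 2 of 4 βKO libraries and is thus listed only through the group in which it is high, so its first place is not a result. The same limit applies to the place of the Acvr1c promoter, found in 1 of 4 control and 3 of 4 βKO libraries.

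Of the wider pathway, 95 symbols of ligands, receptors, SMADs, regulators and targets were listed with results of these tables known. Leaving out the 7 genes, 28 of 88 had a peak in the comparison of genotypes after PPx, and 2 of their 37 peaks were called higher and none lower, where 9.88% of all peaks were called higher. These were Bambi, a decoy receptor without a kinase domain, and Trim33, which binds SMAD2, SMAD3 and SMAD4. The Bambi promoter read 4.09 (control) and 5.06 (βKO), at an FDR of 0.0460, and Trim33 read 3.10 and 4.26, at an FDR of 0.0436 (authors' deposited table). Trim33 appeared as a peak in 0 of 4 control libraries and 3 of 4 from βKO mice. It is thus listed through the group in which it is high, and its call is not counted as support. Of the 37 peaks, 11 stood above the table median, against 49.7% of all peaks and 62.3% of promoter peaks. The 37 had a median of -0.19. The 10 peaks of the 7 genes, chosen from these values, had a median of 0.43. The 2 sets were not matched for promoter, intronic and distal peaks, so the medians do not compare like with like.

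Among these other pathway genes, 0 of 38 peaks were called over time in βKO islets, where 7.44% of all peaks were called higher. Of the 38, 7 stood above the table median, against 49.6% of all peaks. Before PPx 13 of 21 peaks, and over time in control islets 9 of 18, stood above the median, with none called, against 48.9% and 49.7% of all peaks. Inhba, which encodes an activin subunit, had the ligand promoter of highest mean concentration. It read 5.44 (control) and 5.95 (βKO) after PPx, with FDR 0.243 (authors' deposited table), and stood at -0.10 relative to the median. The strongest promoters of the other roles by the same measure were those of Rgmb, a BMP co-receptor, Smad1, a BMP signal transducer, Map3k7, the kinase TAK1, and Hey1, a target. Relative to the median after PPx they stood at 0.11, -0.04, 0.14 and -0.14, and none was called.

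**Figure D5:**
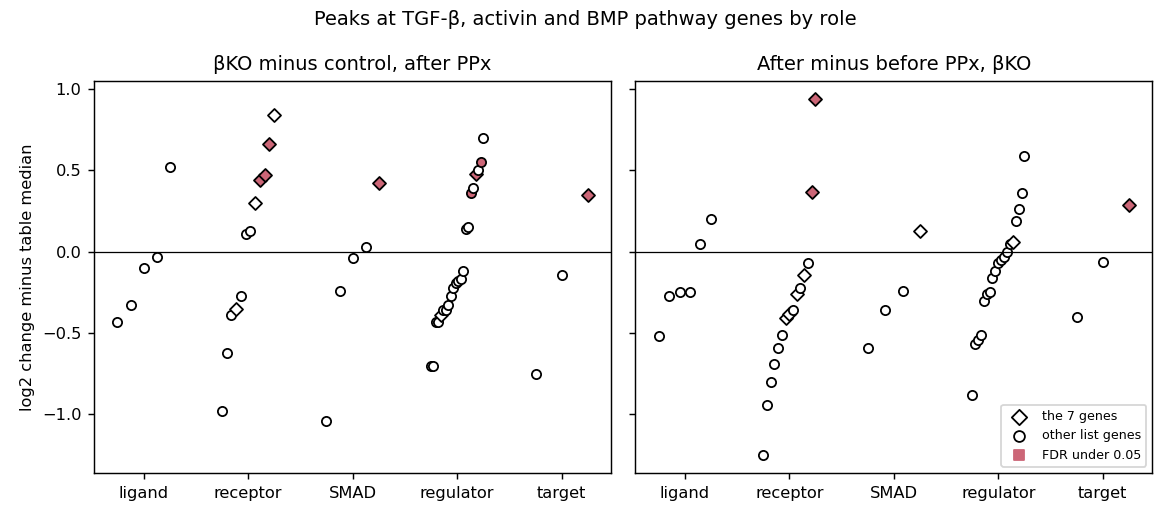
Log2 change minus the table median for each peak at a pathway gene, by role, between genotypes after PPx (left) and over time in βKO islets (right). Diamonds are the 7 genes, circles the other listed genes, and filled symbols had an authors' FDR under 0.05, which among the circles holds for Bambi and Trim33 in the left panel.

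Patterns most like each promoter were sought among up to 5573 peaks found in all 4 tables, by the root mean square difference of the 4 changes relative to the medians. For Id2 these were Dsc2, Srrm2 and Gatad2a, with differences from 0.021 to 0.030 on the log2 scale. Those nearest to Tgfbr1 were Ccdc88a, Mex3b and Panct2 (0.031 to 0.062), and among those nearest to Skil were H2bc15 and Schip1 (0.051 and 0.055). For Acvr2a they were Sem1, Pnisr and Spice1 (0.032 to 0.070), for Smad2 Laptm4a, Zfp213 and Aopep (0.052 to 0.057), and for Acvr1c Car7, Retreg1 and Dct (0.066 to 0.082). Many peaks have like patterns over so few values, and the comparisons share libraries.

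Marker genes of the tissue were checked by whether a peak was annotated to them. Of 10 β cell markers, 4 to 6 had a peak, among them Ins1, Nkx6-1, G6pc2 and Slc30a8 in each table, while Ins2, Iapp, Pdx1 and Slc2a2 had no listed peak. Of 10 markers of other endocrine cells (α, δ and PP cells, along with Ghrl and Mboat4), 4 to 5 had a peak. Between genotypes after PPx, where 9.88% of all peaks were called higher, the markers called were Ins1 and Nkx6-1 (β cells), Sst and Mboat4 (other endocrine cells) and Ambp (duct). Over time in βKO islets they were Slc30a8 (β cells) and Csf1r (macrophages), where 7.44% of all peaks were called higher. None of 8 acinar markers had a peak in any table. Of 7 duct markers 0 to 2, of 6 endothelial 2 to 3, of 7 stromal 2 to 3 and of 7 macrophage and leukocyte markers 0 to 2 had a peak. The endothelial peaks stood at a median of -0.63 relative to the table between genotypes after PPx and at -0.66 over time in βKO islets. The summed linear concentration of the endothelial list was 64.3 (control) and 62.2 (βKO) after PPx, with Pecam1, Kdr and Emcn without a peak. That of the macrophage and leukocyte list was 17.9 and 27.2, with Cd68, Adgre1, Lyz2, Itgam and Cd74 without a peak and a median of 0.07 relative to the table. In the same comparison the β cell list summed to 138.3 and 227.9, the list of other endocrine cells to 74.1 and 117.2, the duct list to 37.8 and 57.0 and the stromal list to 46.8 and 67.6, all in a table whose median peak was higher in βKO islets. The part of these cells in the results at the 7 genes was not tested.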

How the data were processed

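Per the submitters' processing notes, the authors used mm10 (GRCm38) and the tools DiffBind, ChIPseeker, MACS, cutadapt and BWA. Which settings, versions and normalization were used, and whether reads were shifted for the Tn5 cut, is not given in the sources used here. Libraries were read as single ends of 75 bp from 40000 islet cells each, per the labels' protocols. Per the file headers, each of the 4 deposited tables gives, for peaks of 601 bp, the authors' log2 concentration of each group (a group mean) and a log2 fold. The deposited tables also give a p-value and an FDR, and the number of libraries in which each peak was called, per the file headers. Depth per library is unknown.

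Repeated rows of a peak were counted once, and 1 empty row was dropped. The sign of the fold was turned so that positive means higher in βKO islets or after PPx. A peak is called where the authors' FDR is under 0.05. The standard error is the change divided by the normal quantile of its p-value. Where p was 0.5 or more or the change was under 0.1, the median error of peaks of like concentration (20 bins) was used. The 95% intervals and an approximate normal test relative to the table median, with Benjamini-Hochberg adjustment over each table, rest on these errors. Peaks were matched between tables when they shared at least 1 bp. The steps were checked on simulated data with normal errors and p-values from the same normal formula. That check does not cover how well the formula suits the p-values of DiffBind.

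The 7 genes, the pathway list and the marker lists were chosen with earlier results of these data known. Named genes were all peaks of the 7 genes, pathway genes with a call, the strongest promoter per role, and the 3 peaks most alike in pattern. One of these last is not reported here. Nothing says whether mice shared a litter or day. Sequences and gene extents are from RefSeq (GRCm38.p6). Python 3.11.15, pandas 2.3.3, numpy 2.4.6 and scipy 1.17.1 were used.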

Additional observations from a re-analysis of the deposited data

How the results depend on the processing

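At an FDR under 0.01 in place of 0.05, 0 member peaks were called between genotypes after PPx and 0 over time in βKO islets. At an FDR under 0.1 there were 5 over time in βKO islets, where 3 passed at 0.05. The shares of all peaks that pass at 0.01 and at 0.1 were not counted, so nothing is read from these counts. With a Benjamini-Hochberg adjustment over all listed peaks after PPx, 5 were called, Bmpr2 gained a call, and Id2 and Smad2 lost theirs. For this adjustment too, the share of all peaks was not counted. The call of Bmpr2 is not counted as support, because the peak is listed through the group in which it is high. The same holds for the call of the Acvr1c promoter between genotypes after PPx. Without centring, the median difference of the genotype effect after and before PPx was 0.77 at the 7 shared peaks, against 0.13 with it. With every repeated row kept, the median of the member peaks relative to the table over time in βKO islets was -0.14 in place of 0.06, because the 3 Acvr1c peaks are each listed 3 times there. These last values and those with the Benjamini-Hochberg adjustment are among 31 alternatives for counts and medians which, like all 99 for single peaks relative to other medians (promoter class, concentration bin or, chosen after seeing the data, peaks found in all 4 tables), moved values by less than their standard error or counts by at most 1.5 times. No paired analysis was possible because the groups share no replicate numbers and the tables hold group means only, which also leaves no library that could be left out.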
